A study of Mus musculus with 24 samples.

Results

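The 41 genes described here encode proteins of mitosis and cytokinesis: the kinases and cyclins that start mitosis, the kinetochore and its checkpoint, the spindle, the machinery that separates sister chromatids and the cleavage apparatus. They were taken as a list of gene symbols defined by the role of the protein, with no threshold on measured values. The list was chosen with earlier results of these data known, so its counts are not independent of them. It makes up 41 of the 48544 genes in the deposited tables. Messenger RNA was sequenced from C2C12, an established clonal line of mouse myoblasts whose cells leave the cell cycle in low serum and join to form myotubes with many nuclei. The labels give the genotype as WT for all cells, and 24 libraries fall into 6 groups of 4. The day 7 myotubes had been kept in 2% fetal bovine serum and were set against day 0 myoblasts harvested near confluence in 10% serum. From day 7, myotubes received 100 µM dexamethasone, a synthetic glucocorticoid used to make muscle cells atrophy, for 24 h (collected at day 8) or for 72 h (collected at day 10). They were compared with myotubes kept for the same 24 h or 72 h in vehicle medium with 1% ethanol, and both treated and vehicle cultures stayed in 2% serum. Ethanol appears in the labels only in the description of the vehicle medium. Whether the 4 replicates were independent cultures is not given in the sources used here, so each p-value reflects the variation among these libraries, which could be technical. Such cultures also hold cells that have not fused, and the libraries measure the whole dish.

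Mitosis is driven by Cdk1 bound to A- and B-type cyclins. Kinetochores, assembled on the centromeric histone Cenpa, attach chromosomes to spindle microtubules, and the spindle checkpoint holds back Cdc20 until every chromosome is attached. Cdc20 then triggers destruction of securin and cyclin B, separase cuts the links between sister chromatids, and the central spindle directs the contractile ring. Most of these genes are transcribed in G2 and mitosis, and the promoters of many carry the cell cycle genes homology region, bound by complexes that contain the MuvB core with B-Myb or FoxM1 in dividing cells and with p130 and E2F4 in quiescent cells, together with CCAAT boxes bound by NF-Y. Differentiated myotubes are normally withdrawn from the cell cycle for good.

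To show what these promoters share beyond the name of the list, the window from 250 bases before to 50 bases after the start site was searched on both strands, in RefSeq sequences of build GRCm38.p6. Of the 41 genes, 34 had a sequence. Those without one were Ccna2, Aurkb, Incenp, Kif20a, Tpx2, Stmn1 and Pimreg. The homology region was taken as TTTGAA or TTCGAA and the other motif as CCAAT; each match was counted, also where 2 overlapped. TTTGAA or TTCGAA was present in 25 of the 34 genes (73.5%), against 21.7% of the 27025 genes with a promoter sequence and 19.2% of all 32851 promoters of the same length. CCAAT was present in 25 of the 34 (73.5%), against 41.1% of genes and 37.4% of promoters. Both were present in 22 of the 34 (64.7%), against 8.61% of genes and 7.52% of promoters. These matches describe letters in a window, and no binding was measured. The 4 genes with a sequence and the highest mean level over all libraries are printed because their levels are followed in every library below; each is given 5′ to 3′ on the gene's strand with the motif letters of either orientation in capitals.
Cdk1 (GRCm38.p6, chr10:69352863-69353162, minus strand): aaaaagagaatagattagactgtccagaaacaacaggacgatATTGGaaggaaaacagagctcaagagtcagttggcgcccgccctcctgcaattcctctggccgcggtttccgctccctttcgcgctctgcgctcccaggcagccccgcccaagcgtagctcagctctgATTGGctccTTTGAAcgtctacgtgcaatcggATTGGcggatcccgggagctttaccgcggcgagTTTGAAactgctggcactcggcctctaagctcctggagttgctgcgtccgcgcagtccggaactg
Birc5 (GRCm38.p6, chr11:117848987-117849286, plus strand): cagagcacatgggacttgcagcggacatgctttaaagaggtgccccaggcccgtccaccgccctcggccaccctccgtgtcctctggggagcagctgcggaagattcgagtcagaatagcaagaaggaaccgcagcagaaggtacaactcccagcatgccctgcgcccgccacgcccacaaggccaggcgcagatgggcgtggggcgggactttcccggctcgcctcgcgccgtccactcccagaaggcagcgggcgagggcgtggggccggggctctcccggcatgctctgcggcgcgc
Racgap1 (GRCm38.p6, chr15:99651607-99651906, minus strand): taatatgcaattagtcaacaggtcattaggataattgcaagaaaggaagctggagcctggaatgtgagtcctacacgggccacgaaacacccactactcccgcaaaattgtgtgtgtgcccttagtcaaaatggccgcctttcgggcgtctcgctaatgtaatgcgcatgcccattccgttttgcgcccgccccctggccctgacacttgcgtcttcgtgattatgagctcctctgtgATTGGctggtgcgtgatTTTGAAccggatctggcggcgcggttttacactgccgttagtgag
Top2a (GRCm38.p6, chr11:99024140-99024439, minus strand): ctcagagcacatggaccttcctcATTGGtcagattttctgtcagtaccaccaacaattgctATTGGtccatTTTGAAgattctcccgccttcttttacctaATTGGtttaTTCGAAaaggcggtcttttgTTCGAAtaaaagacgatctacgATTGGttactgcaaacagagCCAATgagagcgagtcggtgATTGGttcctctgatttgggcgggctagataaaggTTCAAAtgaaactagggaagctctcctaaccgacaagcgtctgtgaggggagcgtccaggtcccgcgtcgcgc
Positions are those of the leftmost letter. The Cdk1 window held TTTGAA at 2 positions, 71 and 15 bases before the start, and CCAAT at 3. In Top2a there were 2 TTTGAA, 2 TTCGAA and 6 CCAAT matches, the most CCAAT matches of the 4. Racgap1 had 1 of each kind near its start, with the TTTGAA 6 bases into the transcript and its CCAAT 12 bases before the start, and Birc5 had none of these letters in its window.

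Levels are given as TPM, transcripts relative to a fixed total per library, a measure scaled by transcript length that the authors deposited, means are given ± SD over the 4 libraries of a group, and folds are ratios of mean TPM. Differences and their tests come from limma fitted to a second deposited table of normalised values on a log2 scale, over 16257 genes, and a gene was called when its Benjamini-Hochberg adjusted p over all of them was under 0.05. That scale is compressed: over the members, its differences had a slope of 0.651 on log2 differences of TPM for dexamethasone at 72 h and of 0.798 for day 7 against day 0, so the log2 differences understate the folds. All 41 members passed the filter on low values. Between 12428 and 13030 genes per library reached 1 TPM, and the sequencing depth is unknown. Skeletal muscle markers summed to 16290 to 17110 TPM in day 7 libraries, against 652 to 1023 TPM in day 0 libraries. The 72 h replicate 1 libraries stand apart. Over 9 genes found almost only in the other vehicle 72 h libraries, dexamethasone 72 h replicate 1 held a median of 19.5% of the level in its vehicle partner. The other dexamethasone 72 h libraries held 0.137% to 3.51%, each over its own set of 9 to 25 genes. Over 9 genes found almost only in dexamethasone 72 h, vehicle 72 h replicate 1 held 13.0% of the dexamethasone level. The other vehicle 72 h libraries held 0.194% to 0.528%, each over its own set of 10 to 17 genes. For dexamethasone against vehicle at 72 h, the counts of the main fit are therefore given with and without both replicate 1 libraries. So is a fold or a log2 difference of each of the 41 genes. Other comparisons that use 72 h libraries are in part given with all libraries only. Means and SDs are over all 4.

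The mitosis and cytokinesis genes fell to low levels in myotubes, and at 72 h they were higher with dexamethasone than with vehicle, all of them together. All 41 were called lower in day 7 myotubes than in day 0 myoblasts, where 29.8% of all genes tested were called lower. None was called by limma at 24 h of dexamethasone, where 12.2% of all genes tested were called lower and 13.2% higher. There 3 were lower at an unadjusted p under 0.05, and 2 on log2(TPM + 0.1). Counts at an unadjusted p, here and below, have no share of all genes beside them. All 41 were called higher with dexamethasone at 72 h, where 15.2% of all genes tested were called higher, and all 41 were again called without both replicate 1 libraries (15.1% of all genes). The median log2 difference over the 41 was -2.28 for day 7 minus day 0 (0.01 over all genes tested), -0.40 for dexamethasone minus vehicle at 24 h (-0.01 over all genes), and 1.77 at 72 h (0.01 over all genes; 1.90 for the members without both replicate 1 libraries).

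Summed over the 41 genes, the level was 960.8, 342.7, 398.6 and 560.7 TPM in day 7 libraries, against 4041, 4050, 4130 and 3774 TPM in day 0 libraries. At 24 h the sum was 128, 116, 146 and 157 TPM with dexamethasone, against 322, 93.7, 265 and 98.4 TPM with vehicle. At 72 h it was 637, 1280, 361 and 568 TPM with dexamethasone, against 183, 156, 57.1 and 155 TPM with vehicle. The day 7 sums lie below all day 0 sums and the 72 h dexamethasone sums above all 72 h vehicle sums, while at 24 h the 2 groups overlap (as they did for each of the 41 genes, where 8.12% of all genes tested lay wholly lower), since vehicle replicates 1 and 3 were high and replicates 2 and 4 were low. These are bulk libraries, so a change in the share of cycling cells and a change in RNA per cell cannot be told apart.

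**Figure D1:**
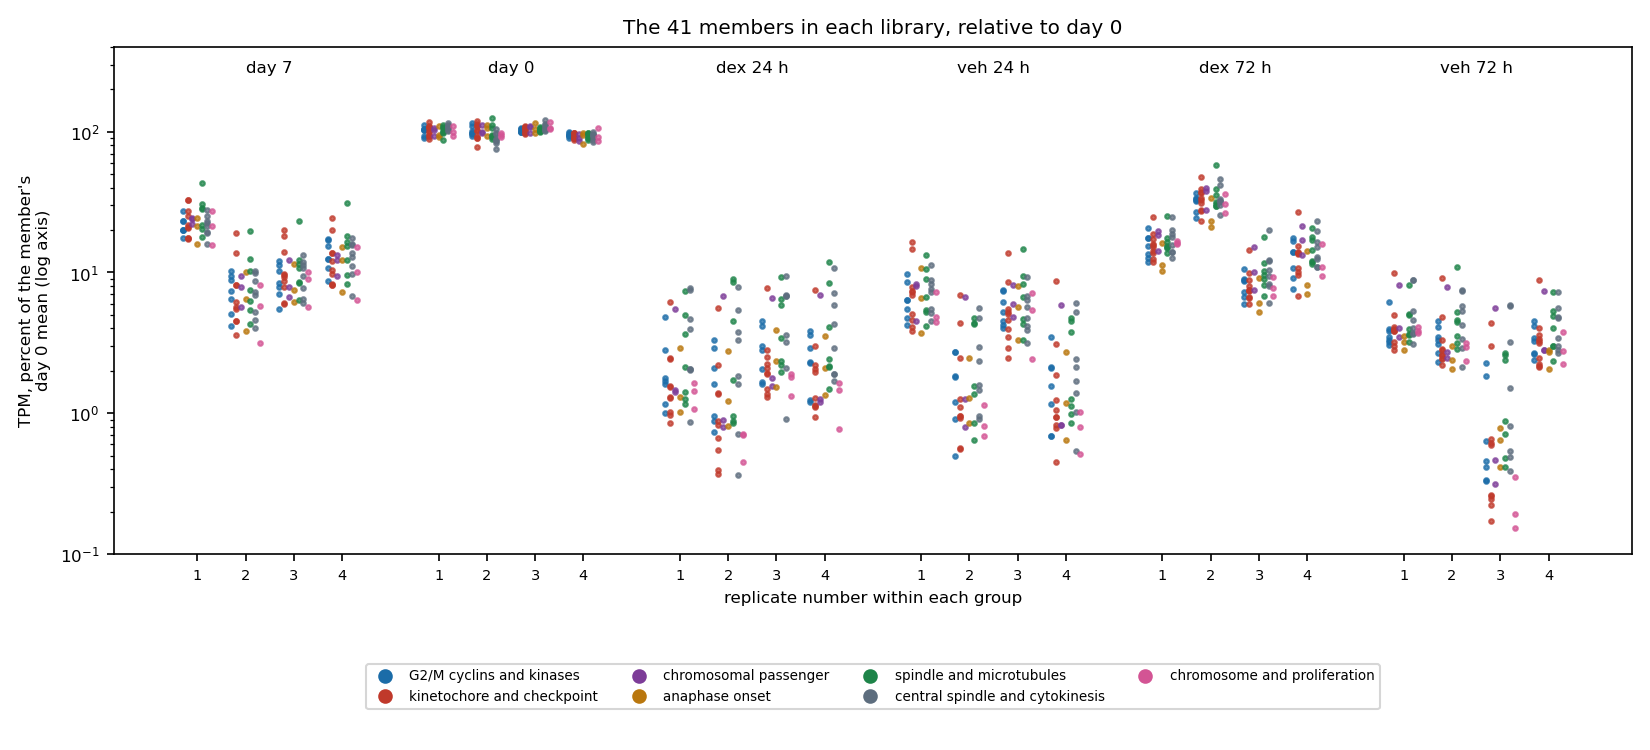
TPM of each of the 41 genes in each of the 24 libraries, as a percentage of that gene's day 0 mean (log axis); points are genes, coloured by role, and replicate numbers within a group have no order. Day 7 replicate 1 and dexamethasone 72 h replicate 2 were the highest of their groups for all 41, while the order of the day 0 libraries differed between genes.

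Within some groups 1 library was the highest or lowest for nearly all genes. Day 7 replicate 1 was the highest of its group for all 41 genes and replicate 2 the lowest for 38. Among dexamethasone 72 h libraries, replicate 2 was the highest and replicate 3 the lowest for all 41. Vehicle 72 h replicate 3 was the lowest for 40. In other groups the order differed between genes: the day 0 libraries were the highest for 14, 12, 14 and 1 genes, vehicle 24 h replicates 2 and 4 were the lowest for 19 and 22, and dexamethasone 24 h replicate 3 was the highest for 30 but the lowest for Stmn1. The coefficient of variation had a median over the genes of 55.2% in day 7 and 8.79% in day 0 libraries. It was 27.2% with dexamethasone and 75.2% with vehicle at 24 h, and 59.5% with dexamethasone and 53.9% with vehicle at 72 h. Day 0 myoblasts were the most even group. TPM did not overlap between dexamethasone 72 h and vehicle 72 h for any of the 41 genes (10.2% of all genes tested lay wholly higher), nor between day 7 and day 0 (26.5% of all genes tested lay wholly lower).

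**Figure D2:**
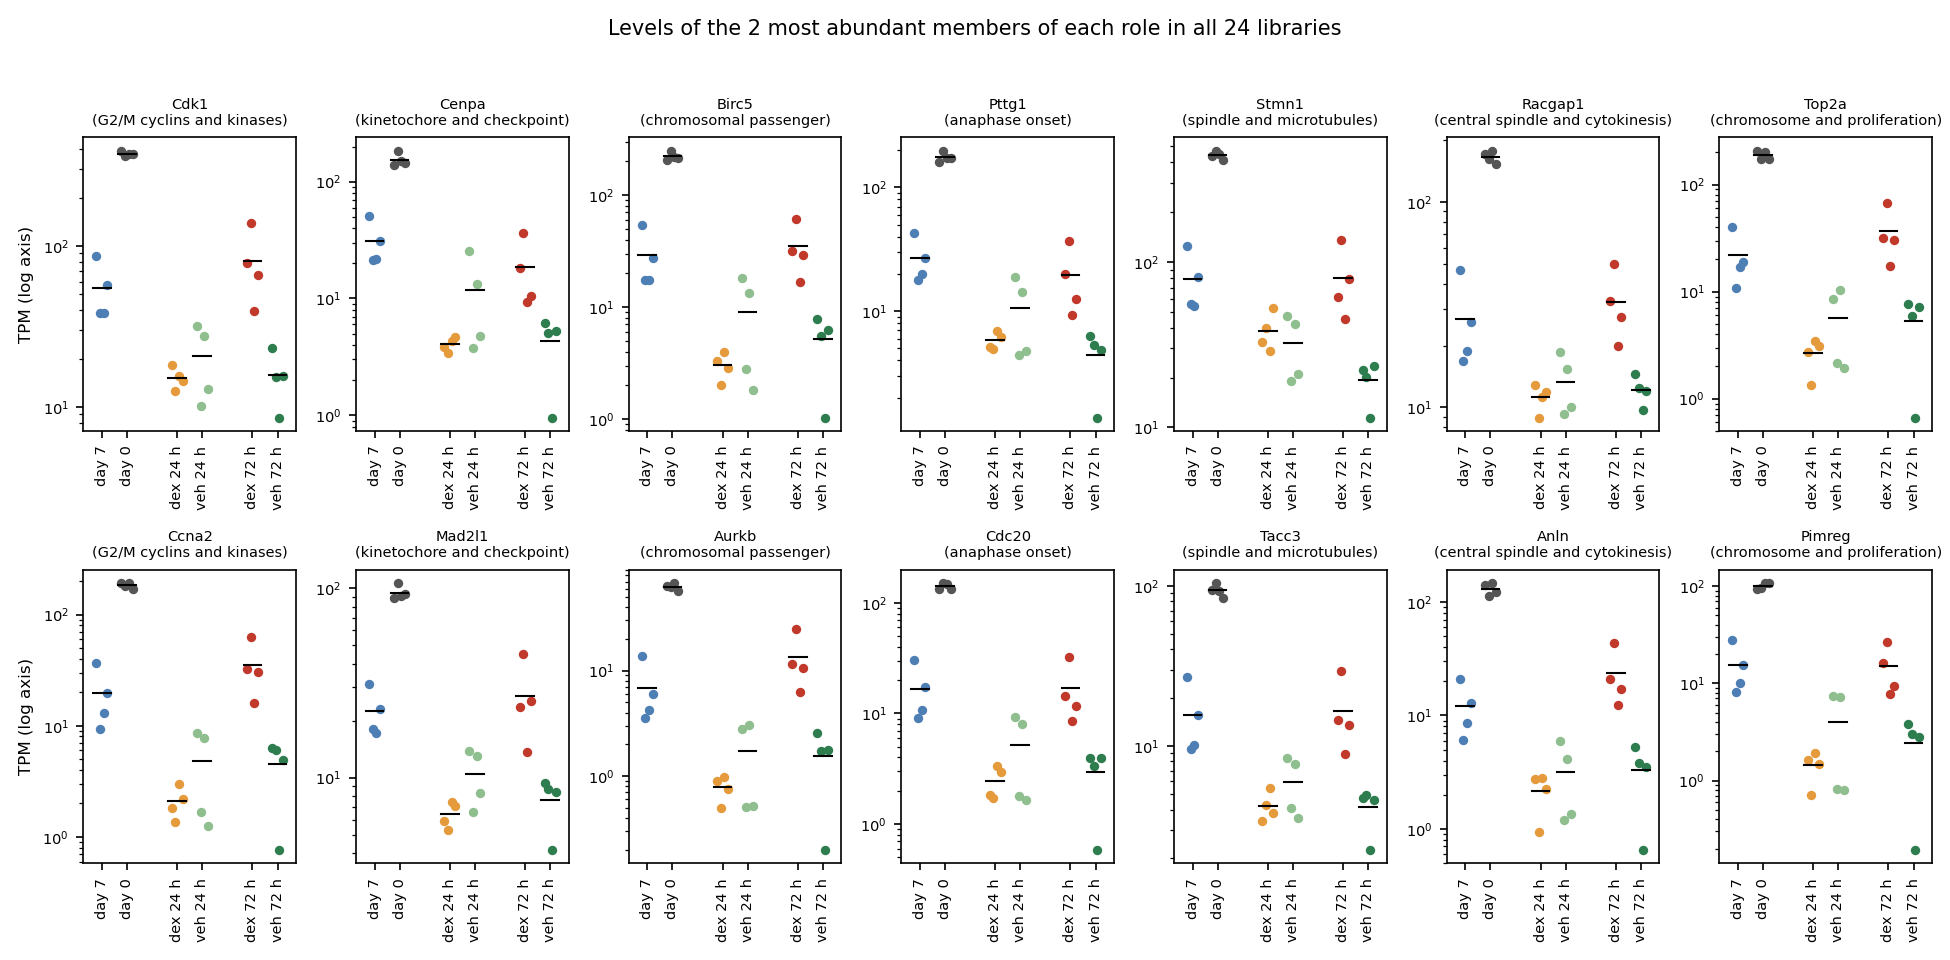
TPM (log axis) of the 2 most abundant genes of each of the 7 roles in every library, with points for libraries and a bar for the group mean (n = 4 each). In all 14 panels every day 7 point lies below every day 0 point and every dexamethasone 72 h point above every vehicle 72 h point.

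The 7 G2 and mitotic cyclins, kinases and Cip2a all fell in day 7 myotubes. All were higher with dexamethasone than with vehicle at 72 h. Cdk1, the kinase that drives entry into mitosis, had 86.4, 38.2, 38.3 and 57.6 TPM in day 7 libraries, against 391, 363, 372 and 373 TPM in day 0 libraries. At 24 h it had 18.2, 12.5, 15.5 and 14.5 TPM with dexamethasone, against 32.1, 10.1, 27.6 and 12.9 TPM with vehicle. At 72 h it had 78.0, 138, 39.5 and 66.0 TPM with dexamethasone, against 23.2, 15.5, 8.58 and 15.6 TPM with vehicle. The lowest dexamethasone 72 h library therefore exceeded the highest vehicle 72 h library, while the 24 h groups overlapped. Its mean at 72 h was 80.5 ± 41.8 TPM with dexamethasone and 15.7 ± 5.97 TPM with vehicle (SD, n = 4 each), 5.12-fold higher, or 6.15-fold without both replicate 1 libraries. The log2 difference was 1.52 ± 0.25 (SE; limma adjusted p = 8.9e-05). Ccna2, the cyclin that partners Cdk2 in S phase and Cdk1 in G2, had 37.0, 9.32, 12.9 and 19.6 TPM in day 7 libraries, against 191, 179.6, 193 and 171 TPM in day 0 libraries. With dexamethasone for 24 h it had 1.83, 1.35, 2.97 and 2.21 TPM, against 8.67, 1.68, 7.75 and 1.26 TPM with vehicle. With dexamethasone for 72 h it had 32.3, 62.4, 16.1 and 30.7 TPM, against 6.34, 6.04, 0.763 and 4.92 TPM with vehicle. Ccna2 had the largest 72 h difference of this group, 2.06 ± 0.38 on the log2 scale (SE; limma adjusted p = 0.00025), a fold of 7.83, or 9.31 without both replicate 1 libraries. The B-type cyclins Ccnb1 and Ccnb2 averaged 20.6 ± 14.4 and 11.0 ± 7.42 TPM with dexamethasone at 72 h, against 2.71 ± 1.57 and 2.29 ± 1.34 TPM with vehicle. The mitotic kinases Plk1 and Aurka, the kinase of centrosomes and spindle poles, averaged 8.99 ± 5.86 and 11.5 ± 6.63 TPM with dexamethasone, against 1.42 ± 0.780 and 1.74 ± 0.921 TPM with vehicle. Cip2a, an inhibitor of protein phosphatase 2A that the deposited table lists under an older name, averaged 10.8 ± 6.34 TPM with dexamethasone, against 2.24 ± 0.772 TPM with vehicle, and had the smallest 72 h difference of the 7 (log2 1.44). Without both replicate 1 libraries the log2 differences of these 5 genes were 2.06 for Ccnb1, 1.55 for Ccnb2, 1.90 for Plk1, 1.91 for Aurka and 1.48 for Cip2a; with all libraries they were 1.91 for Ccnb1, 1.46 for Ccnb2, 1.77 for Plk1 and 1.80 for Aurka. A second row that carries the name Ccnb2 is the pseudogene Ccnb2-ps, which stayed at or below 0.376 TPM and was left out.

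The 10 kinetochore and checkpoint genes behaved alike in direction and differed in size. Cenpa, the histone H3 variant that marks centromeres, had 50.9, 21.2, 21.7 and 31.2 TPM in day 7 libraries, against 138, 184, 152 and 145 TPM in day 0 libraries. After 24 h it had 3.83, 3.42, 4.34 and 4.63 TPM with dexamethasone, against 25.6, 3.80, 13.3 and 4.78 TPM with vehicle. After 72 h it had 18.2, 36.0, 9.27 and 10.6 TPM with dexamethasone, against 6.12, 5.08, 0.953 and 5.23 TPM with vehicle. With dexamethasone at 72 h Cenpa stood 1.31 ± 0.35 above vehicle on the log2 scale (SE, limma adjusted p = 0.00675, the highest of the 41). The fold was 4.26, or 4.96 without both replicate 1 libraries. Mad2l1, the checkpoint protein that binds and restrains Cdc20, had 31.3, 18.1, 17.2 and 23.1 TPM in day 7 libraries, against 88.9, 107, 90.8 and 92.9 TPM in day 0 libraries. Its level after 24 h was 5.89, 5.28, 7.39 and 7.07 TPM with dexamethasone, against 13.8, 6.61, 13.0 and 8.27 TPM with vehicle. Its level after 72 h was 23.5, 45.0, 13.7 and 25.5 TPM with dexamethasone, against 9.38, 8.66, 4.15 and 8.41 TPM with vehicle. Mad2l1 had the smallest 72 h difference of this group (1.17 ± 0.21, SE; limma adjusted p = 0.00023; 3.52-fold, 3.96-fold without both replicate 1 libraries) and kept 23.7% of its day 0 mean at day 7, more than any other kinetochore or checkpoint gene. Knl1, the kinetochore scaffold that recruits Bub1, had the largest, with 3.01 ± 1.88 TPM with dexamethasone and 0.366 ± 0.248 TPM with vehicle (log2 2.10). The checkpoint kinases Bub1 and Ttk and the checkpoint protein Bub1b differed by 2.05, 1.87 and 1.99 on the log2 scale. Ndc80 and Nuf2, 2 subunits of the complex that grips microtubules, differed by 1.93 and 1.98. The kinetochore kinesin Cenpe and the large coiled-coil protein Cenpf differed by 1.77 and 1.27. Without both replicate 1 libraries these log2 differences were 2.30 for Knl1, 2.23 for Bub1, 2.05 for Ttk, 2.15 for Bub1b, 2.12 for Ndc80, 2.12 for Nuf2, 1.87 for Cenpe and 1.32 for Cenpf.

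The chromosomal passenger complex corrects faulty attachments and moves to the central spindle at anaphase. The 3 of its subunits that are among the 41 genes fell in day 7 myotubes and were higher with dexamethasone than with vehicle at 72 h. Birc5 (survivin), a subunit that targets the complex, had 54.0, 17.5, 17.5 and 27.5 TPM in day 7 libraries, against 208, 249.9, 218 and 214 TPM in day 0 libraries. With 24 h of dexamethasone it had 3.27, 2.01, 3.97 and 2.83 TPM, against 18.4, 2.81, 13.2 and 1.83 TPM with vehicle. With 72 h of dexamethasone it had 31.8, 61.7, 16.6 and 29.5 TPM, against 7.80, 5.50, 1.03 and 6.30 TPM with vehicle. The 72 h groups of Birc5, whose printed window held none of the motif letters, did not overlap, at 6.76-fold (8.39-fold without both replicate 1 libraries; log2 difference 1.84 ± 0.39, SE; limma adjusted p = 0.00088). Aurkb, the kinase of the complex, had 13.9, 3.58, 4.23 and 5.96 TPM in day 7 libraries, against 64.1, 62.7, 67.9 and 56.5 TPM in day 0 libraries. Its 24 h levels were 0.888, 0.502, 0.985 and 0.759 TPM with dexamethasone, against 2.82, 0.504, 3.02 and 0.514 TPM with vehicle. Its 72 h levels were 11.6, 24.9, 6.32 and 10.7 TPM with dexamethasone, against 2.55, 1.71, 0.199 and 1.75 TPM with vehicle. Aurkb had the largest 72 h difference of the 41 genes on the log2 scale, 2.13 ± 0.38 (SE; limma adjusted p = 0.0002), a fold of 8.61, or 11.4 without both replicate 1 libraries. Incenp, the scaffold of the complex, had the smallest 72 h difference of the 3, with means of 9.96 ± 4.17 TPM with dexamethasone and 3.09 ± 0.493 TPM with vehicle at 72 h (log2 difference 1.10, or 1.17 without both replicate 1 libraries).

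The genes of anaphase onset all fell at day 7 and were all higher with dexamethasone than with vehicle at 72 h. They are Cdc20, which activates the anaphase-promoting complex, Pttg1 (securin), which that complex destroys, and Espl1 (separase), the protease then freed to act. Pttg1 had 43.0, 17.9, 20.1 and 26.7 TPM in day 7 libraries, against 162, 198, 173 and 173 TPM in day 0 libraries. For 24 h of dexamethasone the values were 5.14, 4.90, 6.93 and 6.21 TPM, against 18.9, 4.39, 14.2 and 4.78 TPM for vehicle. For 72 h of dexamethasone they were 19.8, 36.9, 9.30 and 12.4 TPM, against 6.24, 5.34, 1.38 and 4.83 TPM for vehicle. Pttg1 at 72 h of dexamethasone was 4.41-fold above vehicle (5.08-fold without both replicate 1 libraries; log2 difference 1.30 ± 0.31, SE; limma adjusted p = 0.00251) and reached 11.1% of its day 0 mean, the lowest percentage of the 41. Cdc20 had 30.2, 9.17, 10.7 and 17.2 TPM in day 7 libraries, against 134, 151, 147 and 133 TPM in day 0 libraries. Cdc20 after 24 h stood at 1.84, 1.73, 3.32 and 2.95 TPM with dexamethasone, against 9.30, 1.80, 7.97 and 1.67 TPM with vehicle. Cdc20 after 72 h stood at 14.5, 32.7, 8.54 and 11.6 TPM with dexamethasone, against 3.98, 3.36, 0.584 and 3.98 TPM with vehicle, with no overlap (log2 difference 1.63 ± 0.36, SE; limma adjusted p = 0.00149; 5.66-fold, 6.67-fold without both replicate 1 libraries). Espl1 was the least abundant of the 3 and had the largest TPM fold of the 41 genes at 72 h, with means of 3.21 ± 1.89 TPM with dexamethasone and 0.347 ± 0.183 TPM with vehicle (9.24-fold, 12.1-fold without both replicate 1 libraries).

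The 7 genes of the spindle and its microtubules include the member least reduced at day 7. Stmn1, which destabilises microtubules and was the most abundant of the 41 genes at day 0, had 125, 55.4, 53.9 and 80.8 TPM in day 7 libraries, against 434, 470.3, 449 and 415 TPM in day 0 libraries. By 24 h it had 32.8, 39.7, 28.8 and 52.7 TPM with dexamethasone, against 47.2, 19.1, 42.0 and 21.0 TPM with vehicle. By 72 h it had 61.0, 135, 45.3 and 78.8 TPM with dexamethasone, against 22.1, 20.2, 11.5 and 23.4 TPM with vehicle. The 72 h groups did not overlap (log2 difference 1.28 ± 0.23, SE; limma adjusted p = 0.00019; 4.15-fold, 4.71-fold without both replicate 1 libraries). Tacc3, which stabilises spindle fibres with clathrin and chTOG, had 26.9, 9.60, 10.1 and 15.5 TPM in day 7 libraries, against 93.7, 104, 92.6 and 84.1 TPM in day 0 libraries. Tacc3 levels at 24 h were 3.41, 4.25, 5.46 and 3.84 TPM with dexamethasone, against 8.37, 4.10, 7.74 and 3.56 TPM with vehicle. Tacc3 levels at 72 h were 14.4, 29.4, 8.95 and 13.4 TPM with dexamethasone, against 4.76, 4.93, 2.24 and 4.62 TPM with vehicle. Tacc3 had the smallest 72 h difference of this group, 1.27 ± 0.24 (SE; limma adjusted p = 0.0004; 4.00-fold, 4.40-fold without both replicate 1 libraries). Ckap2, a microtubule-binding protein of the spindle, kept 29.4% of its day 0 mean at day 7, the highest of the 41, with a log2 difference of -1.29 ± 0.28 (SE; limma adjusted p = 0.00049). Kif11, the kinesin that pushes spindle poles apart, and Nusap1, which bundles microtubules around chromosomes, averaged 7.55 ± 4.65 and 9.75 ± 5.61 TPM with dexamethasone at 72 h, against 1.09 ± 0.529 and 1.44 ± 0.826 TPM with vehicle. Tpx2, an activator of Aurka, and Hmmr, a spindle assembly factor, averaged 12.4 ± 7.35 and 9.24 ± 6.04 TPM with dexamethasone, against 2.04 ± 0.927 and 1.39 ± 0.811 TPM with vehicle. At 72 h the log2 difference was 1.83 for Kif11, 1.90 for Nusap1, 1.69 for Tpx2, 1.86 for Hmmr and 1.36 for Ckap2. Without both replicate 1 libraries it was 1.93 for Kif11, 2.03 for Nusap1, 1.78 for Tpx2, 2.01 for Hmmr and 1.44 for Ckap2.

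Among the 8 genes of the central spindle and cleavage furrow, Racgap1 differed least between dexamethasone and vehicle at 72 h. Racgap1, which forms centralspindlin with Kif23, had 46.4, 16.9, 18.8 and 26.1 TPM in day 7 libraries, against 172, 162, 178 and 152 TPM in day 0 libraries. Its values were 12.9, 8.92, 11.2 and 11.9 TPM with 24 h of dexamethasone, against 18.7, 9.34, 15.3 and 10.1 TPM with vehicle. They were 33.0, 49.8, 19.9 and 27.4 TPM with 72 h of dexamethasone, against 14.6, 12.5, 9.75 and 12.0 TPM with vehicle. Although the smallest difference of the 41 on the log2 scale, 0.91 ± 0.20 (SE), it passed the test (limma adjusted p = 0.00111) at 2.67-fold, or 2.84-fold without both replicate 1 libraries. Anln (anillin), the scaffold of the contractile ring, had 21.1, 6.10, 8.60 and 12.8 TPM in day 7 libraries, against 142, 113, 148 and 124 TPM in day 0 libraries. Anln at 24 h gave 2.72, 0.943, 2.79 and 2.25 TPM with dexamethasone, against 5.92, 1.21, 4.13 and 1.35 TPM with vehicle. Anln at 72 h gave 20.8, 44.0, 12.5 and 17.1 TPM with dexamethasone, against 5.29, 3.84, 0.650 and 3.54 TPM with vehicle. It had the largest 72 h difference of the 8, 1.95 ± 0.35 (SE; limma adjusted p = 0.0002; 7.08-fold, 9.16-fold without both replicate 1 libraries). Kif23 and Kif20a, kinesins of the central spindle, and Prc1, which crosslinks its microtubules, differed by 1.82, 1.69 and 1.65 on the log2 scale at 72 h. Ect2, a guanine nucleotide exchange factor of the cleavage furrow, differed by 1.70, Arhgap11a by 1.34 and the cytoskeletal linker Gas2l3 by 1.20. Without both replicate 1 libraries these log2 differences were 1.96 for Kif23, 1.81 for Kif20a, 1.75 for Prc1, 1.83 for Ect2, 1.45 for Arhgap11a and 1.22 for Gas2l3.

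Mki67, Top2a and Pimreg complete the list. Top2a, the topoisomerase that untangles DNA before chromosomes separate, had 40.5, 10.8, 16.9 and 19.0 TPM in day 7 libraries, against 207, 173, 202 and 173 TPM in day 0 libraries. For Top2a the 24 h values were 2.71, 1.34, 3.43 and 3.12 TPM with dexamethasone, against 8.45, 2.18, 10.3 and 1.93 TPM with vehicle. For Top2a the 72 h values were 31.6, 67.8, 17.5 and 30.2 TPM with dexamethasone, against 7.74, 5.93, 0.665 and 7.14 TPM with vehicle. The 72 h groups lay 6.85-fold apart (8.40-fold without both replicate 1 libraries; log2 difference 1.96 ± 0.38, SE; limma adjusted p = 0.0004). Pimreg, a mitotic protein that the deposited table lists under an older name, had 27.6, 8.20, 10.1 and 15.4 TPM in day 7 libraries, against 94.2, 95.7, 106 and 108 TPM in day 0 libraries. For Pimreg the 24 h values were 1.64, 0.707, 1.92 and 1.48 TPM with dexamethasone, against 7.36, 0.815, 7.20 and 0.808 TPM with vehicle. For Pimreg the 72 h values were 16.1, 26.9, 7.80 and 9.50 TPM with dexamethasone, against 3.86, 3.00, 0.194 and 2.78 TPM with vehicle. Pimreg was 1.82 ± 0.43 higher with dexamethasone than with vehicle at 72 h on the log2 scale (SE, limma adjusted p = 0.00261). The fold was 6.14, or 7.40 without both replicate 1 libraries. Mki67, which coats mitotic chromosomes and is a common marker of cycling cells, had the largest fall of the 41 at day 7, with a log2 difference of -2.92 ± 0.44 (SE; limma adjusted p = 5.4e-06), and kept 7.69% of its day 0 mean. At 72 h it averaged 7.21 ± 4.63 TPM with dexamethasone and 0.939 ± 0.651 TPM with vehicle (log2 difference 2.10, or 2.30 without both replicate 1 libraries).

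**Figure D3:**
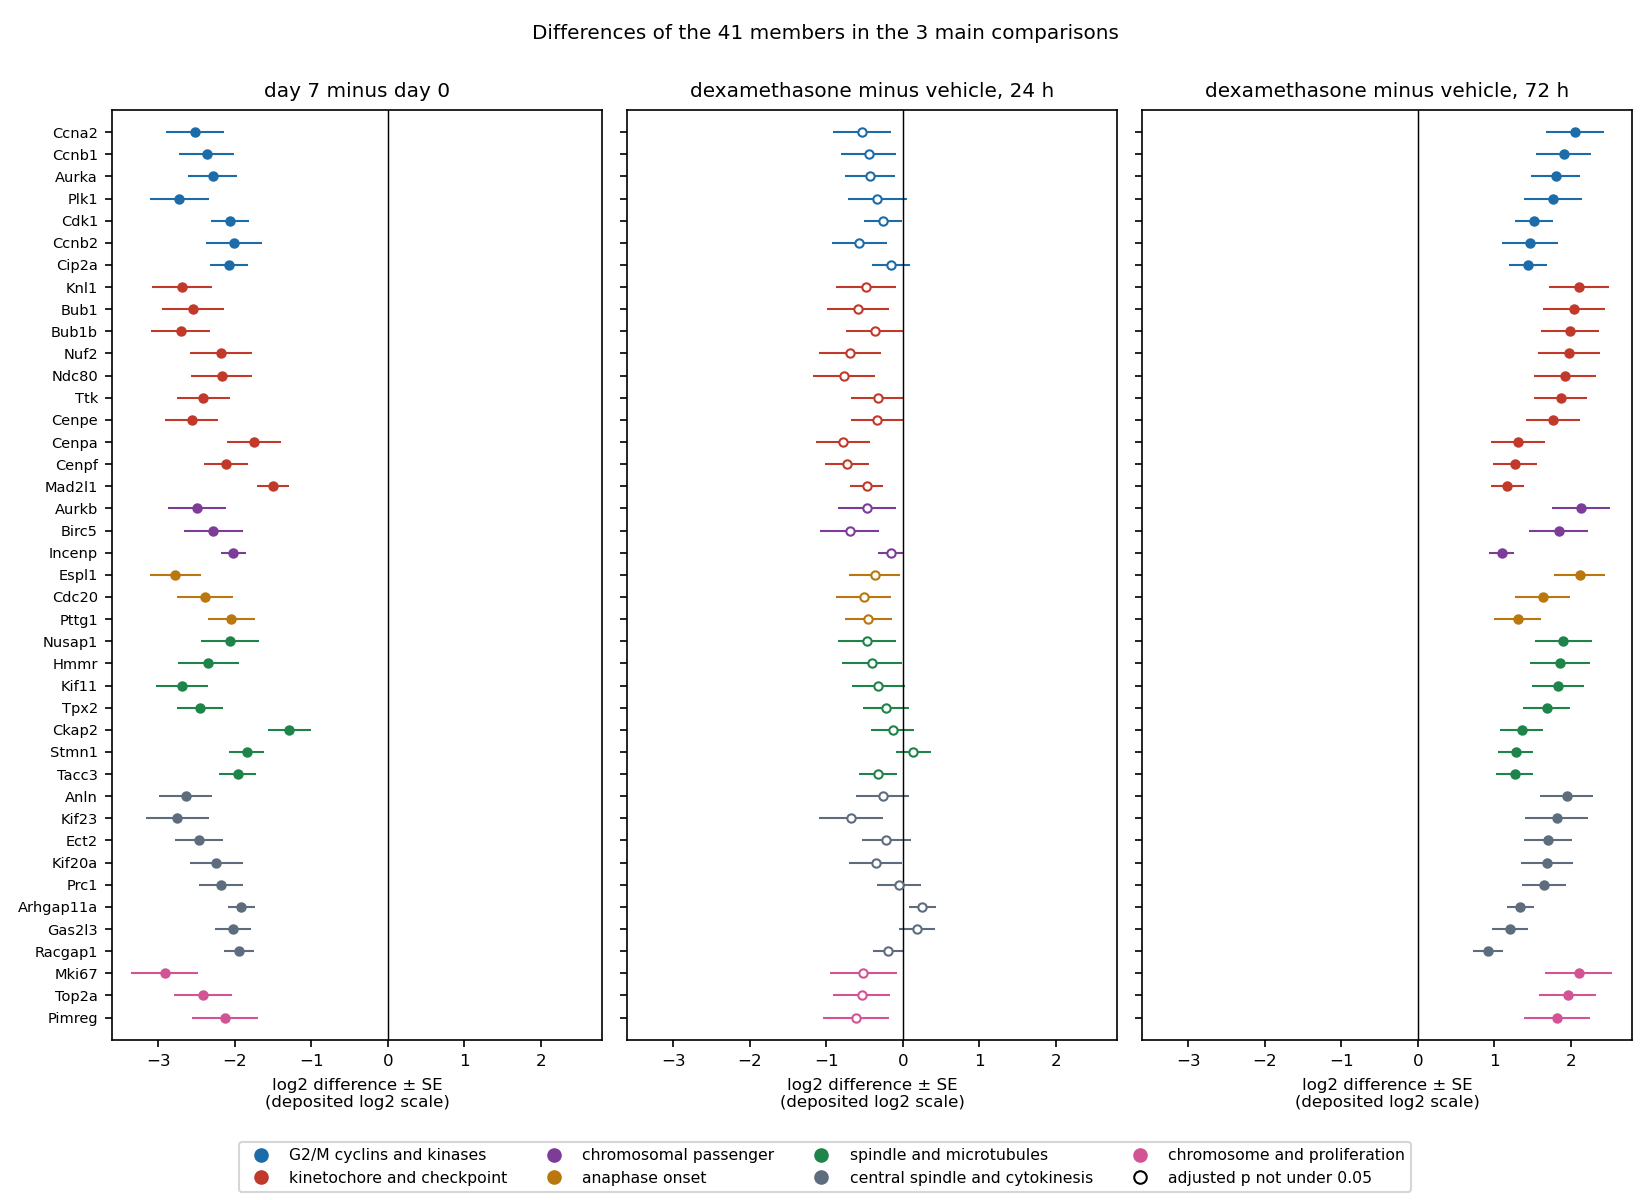
Log2 differences on the deposited scale with their standard errors for the 41 genes, ordered by role, in the 3 main comparisons (n = 4 libraries per group); filled points passed an adjusted p of 0.05. All 41 are filled and negative for day 7 minus day 0, none is filled for dexamethasone minus vehicle at 24 h, and all 41 are filled and positive at 72 h.

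At 24 h the picture differed from that at 72 h. By mean TPM, 38 genes were lower and 3 higher with dexamethasone than with vehicle, from 0.323-fold for Ndc80 to 1.41-fold for Arhgap11a, but limma called none of the 41 after adjustment. The 3 lower at an unadjusted p under 0.05 were Cenpf, Cenpa and Mad2l1, and none was higher. Because vehicle replicates 1 and 3 stood well above replicates 2 and 4, single libraries mattered here: without vehicle 24 h replicate 2, Cenpa and Mad2l1 were called lower, and without vehicle 24 h replicate 4, Cenpf was. The test of the difference between the responses, 72 h minus 24 h, called 40 of the 41 genes higher at 72 h, where 5.56% of all genes tested were called higher, and 40 again without both 72 h replicate 1 libraries (6.46% of all genes). The median over the 41 was 2.14 on the log2 scale (-0.0048 over all genes tested). The lowest was Gas2l3 at 1.02 ± 0.33 (SE), the one that missed the threshold (limma adjusted p = 0.0508). The highest was Ndc80 at 2.70 ± 0.57 (SE, limma adjusted p = 0.00369). Without both 72 h replicate 1 libraries Gas2l3 was at 1.03 (limma adjusted p = 0.066) and Ndc80 at 2.89.

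Between the 2 treated groups, 72 h minus 24 h, all 41 genes were called higher (14.3% of all genes tested were; without both 72 h replicate 1 libraries all 41 and 16.3%), with folds from 2.08 for Stmn1 to 19.9 for Knl1. TPM did not overlap for 40 of them (11.6% of all genes tested lay wholly higher). In Stmn1 the lowest 72 h library, at 45.3 TPM, lay below the highest 24 h library, at 52.7 TPM. Stmn1 was no longer called without a filter on low values (limma adjusted p = 0.0746), with only the groups compared in the fit (0.0535), or when dexamethasone 24 h replicate 1, 2 or 3 or dexamethasone 72 h replicate 4 was left out (0.0614 to 0.0958). Leaving out dexamethasone 72 h replicate 2, the highest library for every gene, took the count to 38, with Pttg1, Stmn1 and Cenpa no longer called. Between the vehicle groups, 72 h minus 24 h, limma called 0 of the 41 (1.69% of all genes tested were called lower and 2.67% higher); Cenpa, Pttg1 and Stmn1 were lower at an unadjusted p under 0.05, 2 genes were on log2(TPM + 0.1), and Cenpa and Pttg1 were called lower without vehicle 24 h replicate 2.

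After 1 day in vehicle medium all 41 genes had a lower mean TPM than at day 7. Vehicle 24 h over day 7 folds ran from 0.207 for Knl1 to 0.494 for Racgap1. Limma called 3 of the 41 lower, Cip2a, Arhgap11a and Gas2l3 (0.111% of all genes tested were called lower). All 41 were lower at an unadjusted p under 0.05. The share of all genes at that threshold is not given, so nothing about these genes is read from that count. The count called became 30 when vehicle 24 h replicate 1 was left out (129 of 16257 genes tested were called lower). It was 25 when replicate 3 was left out (214 of 16257). It dropped to 0 without vehicle 24 h replicate 2 or 4, or without day 7 replicate 1, 3 or 4. In those fits 0 to 2 of all genes tested were called lower. TPM did not overlap for 26 of the 41 (4.61% of all genes tested lay wholly lower). Day 7 libraries enter both this comparison and that with day 0, vehicle 24 h libraries enter this one and the 24 h test, and the 72 h test shares its dexamethasone libraries with the comparisons against 24 h and day 0.

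Even at 72 h of dexamethasone the genes stayed far below dividing myoblasts. All 41 were called lower than at day 0, where 33.0% of all genes tested were (33.1% without both 72 h replicate 1 libraries, again with all 41), and no gene's TPM overlapped (25.7% of all genes tested lay wholly lower). The mean at 72 h of dexamethasone was a median of 17.9% of the day 0 mean over the 41 genes, from 11.1% for Pttg1 to 30.5% for Ckap2 (median 18.5%, from 11.1% to 32.3%, without dexamethasone 72 h replicate 1). The same median was 2.65% with vehicle at 72 h and 13.1% at day 7. Set beside day 7, from which both cultures started, dexamethasone 72 h means were higher for 37 genes and lower for Cenpa (0.593 of the day 7 mean), Pttg1 (0.728), Ccnb2 (0.766) and Pimreg (0.984), and the highest was Espl1 at 2.21. That difference was not tested, and the sums over the 41 genes overlapped, at 361 to 1280 TPM with dexamethasone at 72 h and 343 to 961 TPM at day 7.

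**Figure D4:**
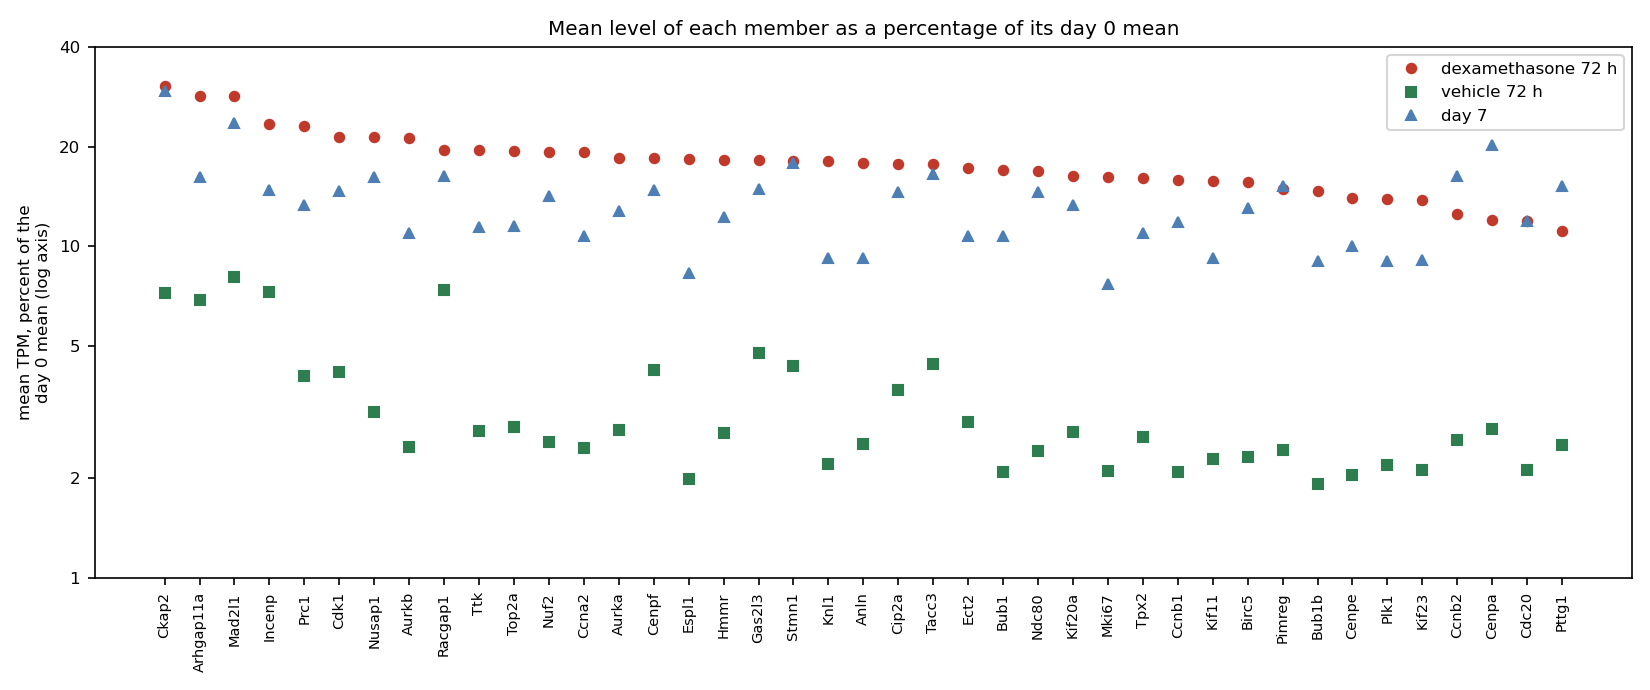
Mean TPM of each gene as a percentage of its day 0 mean (log axis), for dexamethasone 72 h, vehicle 72 h and day 7 (n = 4 libraries each), ordered by the dexamethasone 72 h value. Dexamethasone points run from 30.5% (Ckap2) to 11.1% (Pttg1), all above the vehicle points, which run from 8.07% (Mad2l1) to 1.92% (Bub1b).

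The same direction was seen beyond the 41 genes, in lists also chosen with earlier results of these data known. Of 90 other genes of mitosis and cytokinesis, 80 were called higher and none lower with dexamethasone at 72 h (77 and 0 without both replicate 1 libraries; median log2 difference 1.44), where 15.2% of all genes tested were called higher and 15.2% lower. At day 7, 89 were called lower (29.8% of all genes tested), and at 24 h 2 were called higher and 3 lower (13.2% and 12.2% of all genes tested). The 3 most abundant were Ube2s, a ubiquitin-conjugating enzyme of the anaphase-promoting complex (127.9 ± 19.3 TPM with dexamethasone and 106.1 ± 10.1 TPM with vehicle at 72 h; not called, limma adjusted p = 0.052), Cks2, a Cdk1-binding subunit (72.2 ± 30.9 and 30.5 ± 7.39 TPM; log2 0.79), and Zwint, a kinetochore protein (88.9 ± 13.6 and 53.6 ± 2.27 TPM; log2 0.50). At 24 h the genes called higher were Wee1, the kinase that inhibits Cdk1, and Ccnb1ip1, and those called lower were Kif22, Cit and Haspin. Of 42 DNA replication genes, 40 were called higher and none lower at 72 h (39 and 0 without both replicate 1 libraries; median 1.10), where 15.2% of all genes tested were called higher and 15.2% lower. At day 7, 40 were called lower (29.8% of all genes tested), and at 24 h 2 were called higher and 3 lower (13.2% and 12.2% of all genes tested; 1 and 5 when the fit was blocked by replicate number). Their most abundant members were Rrm2, a subunit of ribonucleotide reductase (270.3 ± 69.6 TPM with dexamethasone and 86.6 ± 13.0 TPM with vehicle at 72 h; log2 1.11), Pcna, the sliding clamp (169.9 ± 37.5 and 78.7 ± 3.01 TPM; log2 0.75), and Orc6 of the origin recognition complex (72.4 ± 16.9 and 59.7 ± 8.70 TPM; not called). Without both replicate 1 libraries the log2 difference at 72 h was 0.16 for Ube2s (not called), 0.85 for Cks2, 0.57 for Zwint, 1.15 for Rrm2, 0.80 for Pcna and 0.22 for Orc6 (not called). The 2 DNA replication genes called higher at 24 h were Rrm2 (199.4 ± 41.7 TPM with dexamethasone and 96.7 ± 26.7 TPM with vehicle, log2 0.64) and Mcm7 (log2 0.28). The 3 called lower at 24 h were Rfc3 (log2 -1.17), Tyms (-0.83) and Dut (-0.33).

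Genes that regulate transcription from such promoters were mixed. Of 17 genes of the MuvB, DREAM, E2F and NF-Y complexes, 10 were called higher and 1 lower with dexamethasone at 72 h, the same numbers without both replicate 1 libraries, with a median log2 difference of 0.21 (15.2% of all genes tested were called higher and 15.2% lower). With the replicate number as a block 3 were called lower, Lin37 and Rbl2 joining E2f5. At day 7, 3 were called higher (30.5% of all genes tested were) and 11 lower (29.8%), and at 24 h of dexamethasone 5 were called higher (13.2%) and 1 lower (12.2%). Foxm1, an activator of mitotic genes, averaged 11.6 ± 5.36 TPM with dexamethasone and 1.36 ± 0.686 TPM with vehicle at 72 h (SD, n = 4 each; log2 difference 2.06, limma adjusted p = 2.7e-05; log2 2.18 without both replicate 1 libraries). Mybl2 (B-Myb), its partner on the MuvB core, averaged 5.33 ± 2.13 TPM with dexamethasone and 0.494 ± 0.420 TPM with vehicle (log2 2.40, limma adjusted p = 6.7e-06; log2 2.68 without both replicate 1 libraries). At 24 h neither was called (limma adjusted p = 0.844 for Foxm1 and 0.957 for Mybl2). The 5 called higher at 24 h were Tfdp2 (log2 1.14), Rbl2, which encodes p130 (0.34), Dyrk1a (0.31), Lin52 (0.28) and Lin54 (0.24). E2f5 was the 1 called lower at 24 h (log2 -0.26). E2f5, a repressor E2F, was also the one called lower at 72 h (10.7 ± 1.11 TPM with dexamethasone and 13.85 ± 0.765 TPM with vehicle; log2 -0.24, limma adjusted p = 0.0242; log2 -0.29 without both replicate 1 libraries). The most abundant of the list differed little at 72 h: Rbbp4, a MuvB subunit, was not called (log2 0.02), while Tfdp1, a partner of E2F factors, and E2f4, which binds p130 in quiescent cells, were called higher (log2 0.29 and 0.19). Leaving out both replicate 1 libraries, these 3 differences were 0.06 for Rbbp4 (not called), 0.30 for Tfdp1 and 0.20 for E2f4.

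**Figure D5:**
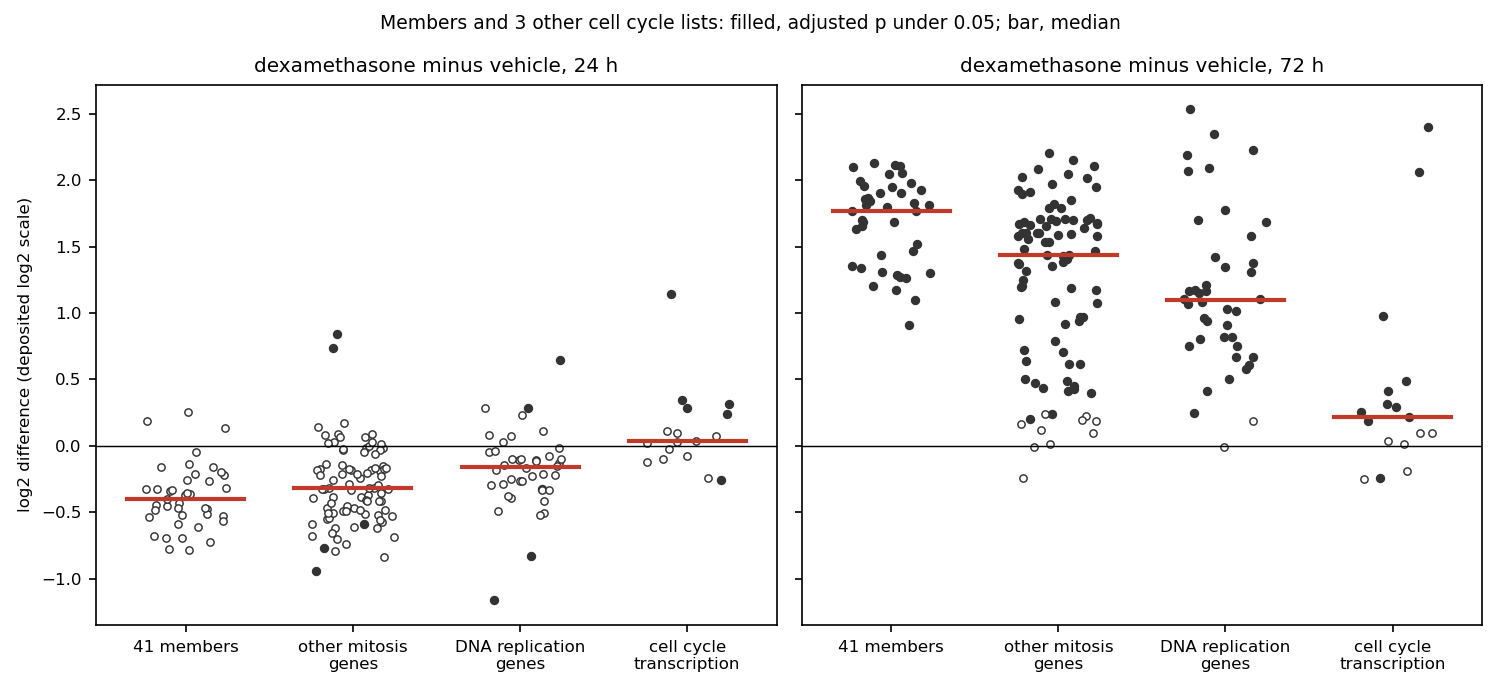
Log2 differences on the deposited scale, dexamethasone minus vehicle after 24 h or 72 h, for the 41 genes and 3 related lists; each point is a gene, filled where its adjusted p was under 0.05, and bars are medians. At 72 h the medians are 1.77 for the 41 genes, 1.44 for other mitosis genes, 1.10 for DNA replication genes and 0.21 for cell cycle transcription genes.

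Markers of other cell types moved at 72 h as well, where 15.2% of all genes tested were called higher and 15.2% lower. The 7 fibroblast markers summed to 149 to 1105 TPM with dexamethasone and 2165 to 3258 TPM with vehicle, and 4 of the 5 that could be tested were called lower, with Tcf21 at 0 in every library. The 6 markers of satellite and reserve cells, the mononucleated cells that stay unfused, summed to 329 to 460 TPM with dexamethasone and 194 to 271 TPM with vehicle, and of these 2 were called higher and 3 lower. Sdc4 made up most of the difference between the sums, with a mean of 245.4 ± 54.0 TPM with dexamethasone and 115.4 ± 20.4 TPM with vehicle. Myf5, the other one called higher, had a mean of 64.8 ± 10.3 TPM with dexamethasone and 10.8 ± 4.75 TPM with vehicle (SD, n = 4 each), whereas Pax7, the defining factor of satellite cells, averaged 0.904 ± 0.545 TPM with dexamethasone and 2.47 ± 0.876 TPM with vehicle. The 6 adipocyte markers summed to 111 to 159 TPM with dexamethasone and 28.0 to 38.6 TPM with vehicle, and 2 of the 3 tested were called higher, while Adipoq was at or below 0.106 TPM and Lep at 0 in these libraries. With both replicate 1 libraries left out, the numbers called in these 3 lists were the same, and the sums were 149 to 380.1 TPM with dexamethasone and 2165 to 3258 TPM with vehicle for fibroblast, 329 to 460 and 194 to 260 TPM for satellite and reserve cell, and 111 to 159 and 28.0 to 31.0 TPM for adipocyte markers. Muscle markers summed to 19600 to 24380 TPM with dexamethasone and 16340 to 23260 TPM with vehicle. For 5 smooth muscle markers the 72 h sums were 3013 to 3686 TPM with dexamethasone and 3215 to 3768 TPM with vehicle, but single genes went opposite ways. Des, which is in the muscle list too, averaged 2027 ± 248 TPM with dexamethasone and 1473 ± 267 TPM with vehicle. Acta2 averaged 1184 ± 337 and 1852 ± 262 TPM, and Tagln 112.5 ± 134 and 179.2 ± 73.5 TPM. Myh11 and Cnn1 were under 1 TPM in all these libraries. The 72 h sums were 7.74 to 12.6 and 12.2 to 18.1 TPM for 5 osteoblast markers. They were 2.34 to 4.61 and 1.29 to 4.27 TPM for 5 immune markers, of which Cd68 alone reached 1 TPM. Endothelial markers summed to at most 0.53 TPM and epithelial markers to at most 0.97 TPM in any library. Some of these sums already lay apart at 24 h, where limma called none of the mitosis and cytokinesis genes described here. With dexamethasone and with vehicle for 24 h, fibroblast markers summed to 1124 to 1313 and 1878 to 3006 TPM. Satellite and reserve cell markers summed to 288 to 320 and 197 to 231 TPM, and adipocyte markers to 140 to 216 and 18.9 to 35.8 TPM. Pax7 was alike at 24 h, at 1.77 and 1.78 TPM. The part of the marker genes in the result for the mitosis and cytokinesis genes was not tested.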

How the data were processed

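Polyadenylated RNA of 24 C2C12 libraries was sequenced with a stranded kit, per the labels' protocols. The submitters' processing notes name Salmon, kallisto 0.51.1, DESeq and build GRCm39, without their roles. The authors deposited a table of TPM and a table of normalised values on a log2 scale; how the latter was normalised is not given in the sources used here, and its values run from -2.33 to 20.06. Read counts were not used here, so depth is unknown and no counting interval is given. Libraries were grouped by their labels, and all columns were used.

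From these tables, genes whose log2 value corresponded to at least 10 on the linear scale in at least 4 libraries were kept (16257 of 48544). One limma 3.58.1 fit (R 4.3.3, trend) over all 24 libraries gave each difference, with Benjamini-Hochberg adjustment at 0.05; the code was tested on simulated data. Means, SDs and folds are of deposited TPM. Of the 41 genes, 39 were matched by name and 2 by identifier. In each of the 7 roles the 2 genes with the highest mean TPM are given in every library; other lists are given as counts with their 3 most abundant genes and those called against the majority. Foxm1, Mybl2, Pax7, Myf5, Sdc4 and the genes called at 24 h were chosen after their values were seen, as were the extremes of each role. The members and lists were chosen with earlier results of these data known. Alternatives were log2(TPM + 0.1), log2(TPM + 1) with TPM of at least 0.5 in 4 libraries (15250 genes), no filter, quantile normalisation, the replicate number as a block, only the groups compared, and leaving out libraries.

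Same-numbered libraries deviated together in every pair for day 7 and day 0 (correlation over genes 0.145 to 0.212). They also did for dexamethasone and vehicle at 24 h (0.201 to 0.391) and at 72 h (0.117 to 0.338). In the other comparisons the correlations were mixed in sign or weak. Correlations ran from -0.249 to 0.565 for vehicle 72 h and 24 h, and from -0.176 to 0.385 for dexamethasone 72 h and 24 h. They were -0.0142 to 0.492 for vehicle 24 h and day 7. For dexamethasone 72 h and day 0 they were again all positive, at 0.0639 to 0.0933. Of 120 pairs of a library with another group, the same number correlated best, among the 4 of that group, in 67. No label says what a number shares. Every p-value printed is from the fit without the replicate block, except where the block is named. In the mixing check at 72 h, genes were chosen anew for each library examined, from the replicates 2 to 4 other than that library. A gene belonged to 1 arm when those replicates had at least 5 TPM there and at most 2% of that in the other arm.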

Additional observations from a re-analysis of the deposited data

Results flagged for a closer look

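The response to dexamethasone differed between 72 h and 24 h for 40 of the 41 genes, by limma's test of the difference between the responses over all genes. All 40 were called higher, as were 5.56% of all genes tested. Of the genes given in every library, the difference, 72 h minus 24 h on the log2 scale, was 2.59 for Ccna2 (limma adjusted p = 0.00298), 2.60 for Aurkb (limma adjusted p = 0.00324), 2.53 for Birc5 (0.00408), 2.50 for Top2a (0.00387), 2.42 for Pimreg (0.0116), 2.21 for Anln (0.00521), 2.14 for Cdc20 (0.00858) and 2.10 for Cenpa (0.00807). It was 1.78 for Cdk1 (adjusted p = 0.00246), 1.76 for Pttg1 (0.0106), 1.65 for Mad2l1 (0.00135), 1.59 for Tacc3 (0.00433), 1.15 for Stmn1 (0.0229) and 1.11 for Racgap1 (0.0112). Vehicle 24 h replicates 1 and 3, which were high for these genes, enter each of these values.

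Tacc3 stood at 2.24 TPM in vehicle 72 h replicate 3, far below the other 3 libraries of its group; its gap to the nearest of them was 0.882 of the group's whole range, above Dixon's 95% critical value for 4 samples. Among the 84 combinations of gene and group looked at, chance flags about 1 in 20. The same library was the lowest of its group for 40 of the 41 genes.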

How the results depend on the processing

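All 41 genes stayed called lower at day 7 than at day 0, higher with dexamethasone than with vehicle at 72 h, and lower at 72 h of dexamethasone than at day 0, under every alternative run, including each left-out library. No difference reversed among those called. With the replicate number as a block the same counts of members were called, except that the difference between the 72 h and 24 h responses called 41 in place of 40 (1066 of 16257 genes tested were called higher). The block changed no other call among the members. Leaving out 1 library at a time gave 39 to 41 for that difference, 38 to 41 for dexamethasone 72 h against 24 h, 0 to 2 at 24 h of dexamethasone, 0 to 2 for vehicle 72 h against 24 h, and 0 to 30 for vehicle 24 h against day 7. Of all 16257 genes tested, the same fits called 640 to 1177 and 1697 to 2671 higher in the first 2 of these comparisons. In the other 3 they called 1217 to 2117, 1 to 824 and 0 to 214 lower. The count of members for vehicle 24 h against day 7 was 3 in the main fit. It was 0 with log2(TPM + 0.1), with log2(TPM + 1), without a filter and with only the groups compared, and the cause was not tested. With log2(TPM + 0.1) the median of all genes moved to 0.13 for vehicle 72 h against 24 h and to -0.12 for the difference between responses, where that of the members was 2.14 on the main scale. The combination of log2(TPM + 0.1) with both 72 h replicate 1 libraries left out was added after the data were seen. Unknown depth limits what can be said of values under 1 TPM, which at least 1 library had for 20 of the 41 genes with dexamethasone at 24 h, 21 with vehicle at 24 h and 29 with vehicle at 72 h. The lowest were of Knl1, at 0.0615 TPM with dexamethasone at 24 h, 0.0934 TPM with vehicle at 24 h and 0.0371 TPM with vehicle at 72 h, so folds against these groups rest on such values.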

Other observations

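Ratios between genes within a library also differed between groups; they were chosen after the values were seen and have no test. Ccna2 over Ccnb2, by TPM, was 3.08, 2.88, 3.06 and 4.58 with dexamethasone at 72 h, against 2.17, 1.97, 2.63 and 1.70 with vehicle. It was 1.52, 1.12, 1.28 and 1.32 in day 7 libraries, against 2.40, 1.78, 2.19 and 2.03 in day 0 libraries. The dexamethasone 72 h libraries thus lay above every day 0 library in this ratio although each gene alone lay below. At 24 h the ratio averaged 0.984 with dexamethasone and 0.974 with vehicle. With vehicle at 72 h it averaged 2.12, beside 2.10 at day 0. Aurkb over Cenpa was 0.638, 0.690, 0.681 and 1.01 with dexamethasone at 72 h, against 0.417, 0.337, 0.208 and 0.335 with vehicle. It was 0.169 to 0.273 in day 7 libraries, against 0.340 to 0.465 in day 0 libraries. At 24 h it averaged 0.192 with dexamethasone and 0.144 with vehicle. In vehicle 72 h replicate 3, Ccna2, Aurkb and Cenpa were each under 1 TPM, so its ratios rest on low values. Aurkb was also under 1 TPM in every dexamethasone 24 h library and in vehicle 24 h replicates 2 and 4.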
